A study of Mus musculus with 13 samples.

Results

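The RNA of 10 genes of the Notch pathway was followed in MP EPO-GEMM tumors and in WT ovaries of the mouse. They are the 4 receptors (Notch1, Notch2, Notch3 and Notch4), the ligands Jag1 and Dll4, and the target genes Hes1, Hey1, Hey2 and Heyl. Members were the rows of the deposited table that carry these gene names, and all 10 were found among its 53465 genes. Notch receptors are membrane proteins that are switched on by a ligand on a neighbouring cell. Binding lets an ADAM protease and then γ-secretase cut the receptor, and the freed intracellular domain enters the nucleus, where it joins the DNA-binding protein RBPJ and a Mastermind co-activator to switch on Hes and Hey genes, which code for repressors. In blood vessels Dll4 and Notch4 are known from endothelium and Notch3 and Heyl from mural cells (pericytes and smooth muscle), while in the ovary Notch2 and Jag1 are known from granulosa cells and oocytes of growing follicles.

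EPO-GEMM tumors arise after plasmids are injected into the left ovary of a female C57BL/6 mouse, 8 to 12 wk old, and driven into the tissue with electric pulses. The labels give the genotype as Myc;p53-/-, made with a CRISPR-Cas9 vector against Trp53 together with a Sleeping Beauty transposon that overexpresses MYC, and the treatment as non-treated. RNA came from whole tissue of 10 MP tumors and of 3 ovaries of untreated WT mice, so cells of the host are present in each tumor library, and electroporation is not directed at a cell type. The mice carry no other deletion or transgene by the labels, and nothing says what age the WT mice had when the ovary was taken. Libraries that share a number in the label's description are called a batch here, although what the number marks is not stated. All 3 WT ovaries fell into batch 1 with MP tumors 1, 2 and 3. Batch 2 consisted of MP tumors 4, 5 and 6, and batch 3 of MP tumors 7, 8 and 9 with the library labelled MP tumor 10.

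Values are TPM (transcript abundances corrected for gene length), which sum to 1000000 in each library. Reads worked back from the table came to between 31445004 and 64013840 per WT ovary and between 3892690 and 19906507 per MP tumor. The RNA of Trp53, the edited gene, stood between 80.7 and 85.4 TPM in WT ovaries. In MP tumors 1 to 9 it stood between 4.30 and 26.0 TPM. The library labelled MP tumor 10 was at 186.8 TPM, above every ovary, and whether this goes against its label was not tested. Mouse Myc RNA stood between 125.5 and 129.4 TPM in ovaries and between 7.09 and 419.3 TPM in MP tumors. It was below every ovary in MP tumors 1 to 5 and 9 and highest in the library labelled MP tumor 10. Whether RNA of the MYC transposon is counted in this gene is not stated. In MP tumor 2 the 10 largest genes took 55.1% of all TPM, whereas in the other libraries they took at most 20.6%. Of the defining markers of the ovary, the granulosa list summed to between 3656 and 6858 TPM in WT ovaries and between 5.67 and 1541 TPM in MP tumors. Fshr, Amh, Inhba and Cyp19a1 were each at 0 in at least 1 tumor, while Foxl2, Inha, Nr5a2 and Fst were above 0 in every tumor. The epithelial list (Epcam, Cdh1, keratins and claudins) summed to between 249.0 and 281 TPM in WT ovaries and between 9.80 and 1237 TPM in MP tumors. Cdh1, Krt19 and Cldn4 were each at 0 in at least 1 tumor. By group mean, Krt8, Krt18, Cldn3 and Cldn4 were higher in MP tumors, and Epcam, Cdh1, Krt7 and Krt19 were lower.

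Hey2 and Heyl, both repressors of the Hairy/E(spl) family, were the members that fell in MP tumors when all 10 were compared with the 3 WT ovaries. Hey2 was 30.7 times lower and Heyl 15.7 times lower by the ratio of medians. The ratio of the tumor mean to the ovary mean was 0.0350 for Hey2 but 0.232 for Heyl, which in MP tumor 5 stood above every ovary. The 4 receptors, both ligands, Hes1 and Hey1 had lower group means in MP tumors but spread widely between tumors, and none of them passed the test in the comparison without a covariate. Genes were tested with limma on log2(TPM + 1), with P values adjusted by the Benjamini-Hochberg method over the 17277 genes that reached 1 TPM in at least 3 libraries, and all 10 members passed this filter. Because of the added 1, fold changes of weakly expressed genes come out smaller on this scale than they are. Of the 10 members, 2 were lower at an adjusted P value under 0.05, beside 14.3% of all genes tested. None was higher by limma, beside 2.51% of all genes. None was higher at an unadjusted P value under 0.05, beside 5.63%, or with limma-voom on the reads, beside 14.8%. Hey2, Heyl and Notch3 were the 3 members lower at an unadjusted P value under 0.05, beside 27.4% of all genes, and also the 3 lower with limma-voom, beside 19.1%. All 10 had a log2 fold change below 0, as did 69.9% of all genes, and their median was −1.28, beside −0.58 over all genes. Hey2 was the 1 member without overlap between tumors and ovaries, beside 16.4% of all genes that were lower without overlap, and no member was higher without overlap, beside 3.02%. Without WT ovary 1, 2 or 3, Hey2 was the 1 lower member, beside 6.70%, 6.92% and 6.86% of all genes. Without MP tumor 1, 3, 4 or 8 it was also the 1 lower member, beside 11.9% to 14.2% of all genes. The log2 fold change of Heyl in these 7 fits lay between −3.13 and −2.86. Without the library labelled MP tumor 10 both were lower, with a log2 fold change of −3.81 for Hey2 and −3.21 for Heyl. With the batch as a covariate, which rests the comparison on batch 1, 7 members were lower (the 4 receptors, Dll4, Hey2 and Heyl), beside 49.4% of all genes. Fewer cells of a type and less RNA per cell cannot be told apart in bulk tissue.

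The balance between higher and lower genes moved with the scaling. Over all genes 433 were higher and 2463 lower, so that 15.0% of the changed genes were higher. This share was 40.6% after median-of-ratios scaling, 47.7% after quantile normalization and 50.1% after each library's trend with gene length was removed, and the median over all genes was then −0.02, 0.08 and 0.04. Under these scalings the log2 fold change of Hey2 was −3.19, −2.98 and −3.04, and that of Heyl was −2.43, −2.45 and −2.26. Both passed the threshold each time.

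**Figure D1:**
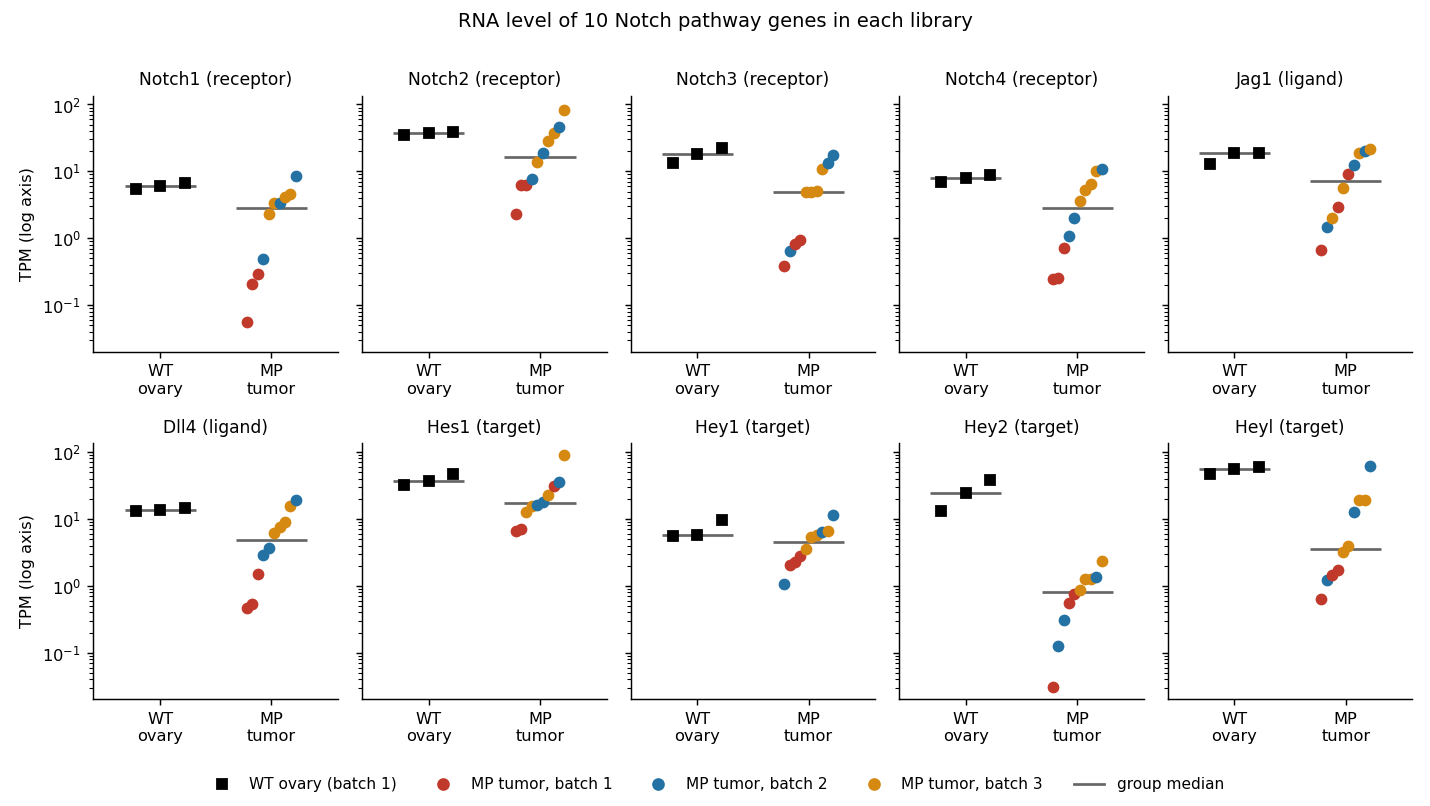
TPM of each of the 10 genes (log axis) in each library, with WT ovaries as black squares, MP tumors as circles colored by batch, and a gray line at the group median. All 10 tumors lie below the 3 ovaries for Hey2, and the 3 batch 1 tumors lie below the ovaries in each panel.

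Notch1 and Notch2 code for the receptors that are found most widely among tissues. Notch1 (ENSMUSG00000026923, chromosome 2 from 26457903 to 26516663, minus strand, GRCm38) stood at 6.70, 6.11 and 5.41 TPM in WT ovaries 1, 2 and 3. In MP tumors it ran from 0.0561 TPM, which rests on 7 reads, through a median of 2.82 to 8.44 TPM. MP tumor 5 was above the ovaries and the other 9 tumors were below them, and the log2 fold change was −1.28 (SE 0.64, limma adjusted P = 0.170). Notch2 (ENSMUSG00000027878, chromosome 3 from 98013527 to 98150361, plus strand) was the receptor with the highest level, at 37.5, 35.0 and 39.0 TPM in the ovaries. Its lowest, median and highest values in MP tumors were 2.27, 16.4 and 82.4 TPM. The groups overlapped, with 7 tumors below the ovaries and MP tumors 5 and 9 above them, and the log2 fold change was −1.17 (SE 0.79, limma adjusted P = 0.307).

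Notch3 is known from mural cells and Notch4 from endothelium. Notch3 (ENSMUSG00000038146, chromosome 17 from 32120820 to 32166880, minus strand) stood at 22.3, 18.1 and 13.5 TPM in the ovaries. In MP tumors it ran from 0.381 through a median of 4.99 to 17.7 TPM, and 9 of 10 tumors were below the ovaries. Its log2 fold change was −1.98 (SE 0.78, limma adjusted P = 0.0907), and it passed the threshold in 5 of 25 alternatives. These were without MP tumor 5, its highest tumor (adjusted P = 0.0424), limma-voom (adjusted P = 0.0232), the batch covariate, and batch 1 with and without the replicate block. Notch4 (ENSMUSG00000015468, chromosome 17 from 34564268 to 34588503, plus strand) stood at 8.74, 7.86 and 6.86 TPM in the ovaries. Its lowest, median and highest values in MP tumors were 0.246, 2.83 and 10.9 TPM, and MP tumors 5 and 9 were above the ovaries while 8 tumors were below. The log2 fold change was −1.25 (SE 0.70, limma adjusted P = 0.223).

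The 4 receptors are long genes, with between 8044 and 14232 bases counted per gene, and fold changes moved with length in these libraries. Over the 2019 genes of 8000 to 16000 bases the median log2 fold change was −1.02, and over the 4786 genes of up to 2000 bases it was −0.08. With each library's trend with length removed, the log2 fold change was −0.19 for Notch1, −0.14 for Notch2, −1.06 for Notch3 and −0.33 for Notch4, beside a median of 0.04 over all genes. The part of gene length in the receptor values was not tested.

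Jag1 and Dll4 code for ligands that sit on the neighbouring cell, the former of the Jagged and the latter of the Delta type. Jag1 (ENSMUSG00000027276, chromosome 2 from 137081456 to 137116644, minus strand) stood at 18.8, 18.7 and 13.1 TPM in WT ovaries. In MP tumors it ran from 0.669 through a median of 7.31 to 21.6 TPM. MP tumors 5 and 9 and the library labelled MP tumor 10 were above every ovary and the other 7 were below, with a log2 fold change of −1.27 (SE 0.78, limma adjusted P = 0.259). Dll4 (ENSMUSG00000027314, chromosome 2 from 119325784 to 119335962, plus strand) was the steadiest member in the ovaries, at 14.5, 13.3 and 13.6 TPM. In MP tumors its lowest, median and highest values were 0.467, 4.91 and 19.1 TPM. MP tumors 5 and 9 were above the ovaries and 8 tumors below, and the log2 fold change was −1.46 (SE 0.74, limma adjusted P = 0.182).

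Among the targets, Hes1 and Hey1 had the smallest log2 fold changes of the 10 members. Hes1 (ENSMUSG00000022528, chromosome 16 from 30064384 to 30067796, plus strand) stood at 47.0, 32.1 and 37.2 TPM in WT ovaries. Its lowest, median and highest values in MP tumors were 6.55, 17.1 and 90.1 TPM, the last in MP tumor 9. The groups overlapped, and the log2 fold change was −0.96 (SE 0.61, limma adjusted P = 0.278). Hey1 (ENSMUSG00000040289, chromosome 3 from 8663359 to 8667256, minus strand) stood at 9.61, 5.72 and 5.53 TPM in the ovaries and between 1.05 and 11.6 TPM in MP tumors, with a median of 4.48 TPM. Its log2 fold change of −0.62 (SE 0.51, limma adjusted P = 0.398) was close to the median of all genes and turned to 0.34 under quantile normalization.

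Hey2 showed the widest separation of the members. Hey2 (ENSMUSG00000019789, chromosome 10 from 30832359 to 30842801, minus strand) stood at 24.5, 38.5 and 13.1 TPM in WT ovaries 1, 2 and 3. Its lowest, median and highest values in MP tumors were 0.0303, 0.799 and 2.38 TPM, so that the groups did not overlap. MP tumors 1 and 4 each rest on 1 read and no tumor on more than 29 reads, while the ovaries rest on between 1175 and 1674 reads. The log2 fold change was −3.77 (SE 0.43, limma adjusted P = 1.64e-05), and it passed the threshold in each of 25 alternatives, which ranged from −5.00 to −2.98. Hey2 also varied most between the ovaries, with a coefficient of variation of 50.1%, where the other members had between 4.63% and 33.1%.

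Hey2 was the only target with a matched promoter sequence, so the promoters of Hes1, Hey1 and Heyl were not searched. The promoter of Hey2 is shown also because this target had the largest log2 fold change over the 10 tumors (within batch 1 that of Heyl was larger). The promoter holds the letters TTCCCA, which are the reverse complement of TGGGAA, the core to which RBPJ binds. The sequence is that of the 250 bases before the start of Hey2 in RefSeq, on GRCm38.p6 at chr10:30842784-30843033, written along the minus strand, and capitals mark the match.

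Hey2 promoter: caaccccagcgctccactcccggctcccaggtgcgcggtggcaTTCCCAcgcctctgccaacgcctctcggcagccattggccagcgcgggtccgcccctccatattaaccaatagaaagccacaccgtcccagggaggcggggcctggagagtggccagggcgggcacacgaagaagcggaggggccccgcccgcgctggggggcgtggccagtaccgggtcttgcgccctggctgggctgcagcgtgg

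The match begins 207 bases before the start, and the base after it makes it a match to GTGGGAA as well. On both strands, TGGGAA was found in 21.6% of 32851 mouse promoters of this length and GTGGGAA, which contains it, in 5.42%. Promoter sequences were matched for 7 members (the 4 receptors, Jag1, Dll4 and Hey2), and among them Hey2 was the 1 with either motif. The E-box CACGTG, found in 6.02% of all promoters, was in none of the 7. A match of letters is a description and not a measured binding site.

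Heyl was the member with the highest level in WT ovaries. Heyl (ENSMUSG00000032744, chromosome 4 from 123233556 to 123249875, plus strand) stood at 59.0, 56.4 and 46.4 TPM there. Its lowest, median and highest values in MP tumors were 0.634, 3.60 and 61.8 TPM. MP tumor 5 stood above every ovary, and the other 9 tumors were at or below 19.1 TPM. The log2 fold change was −3.03 (SE 0.94, limma adjusted P = 0.0388). The call was lost when any of WT ovaries 1, 2 and 3 or of MP tumors 1, 3, 4 and 8 was left out, with a pseudocount of 0.1 and without the filter, with an adjusted P value between 0.0517 and 0.144. It held in the other 16 of 25 alternatives.

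**Figure D2:**
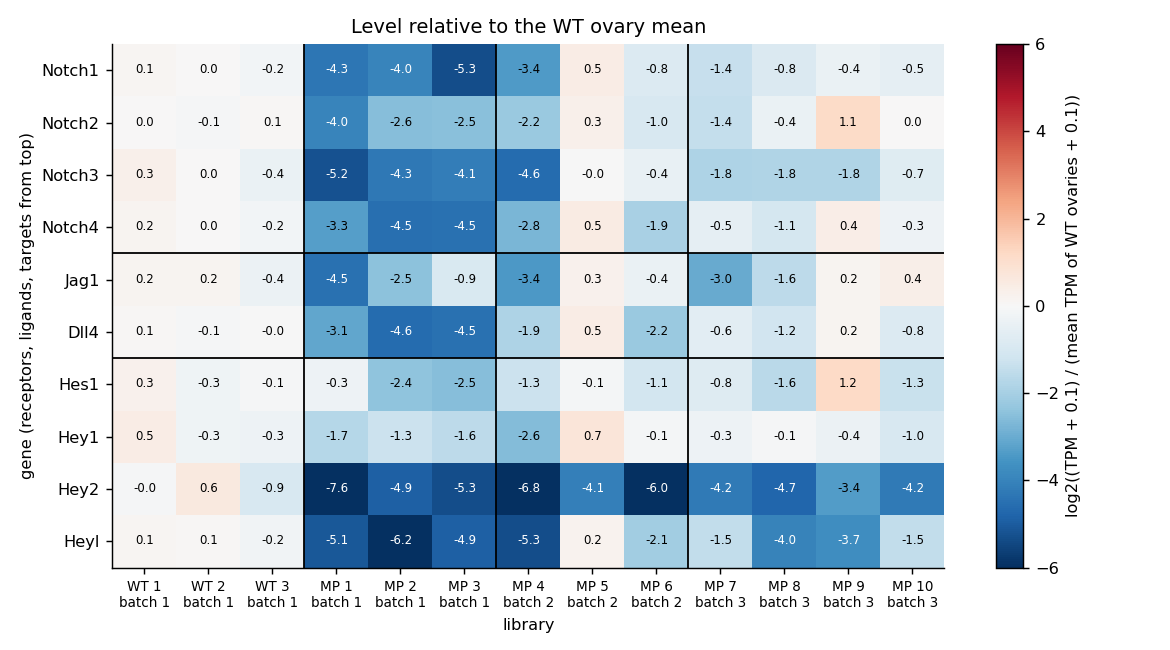
Level of each gene (rows, from receptors to targets) in each library (columns, with vertical lines between batches of tumors) as log2 of the ratio to the mean TPM of the 3 WT ovaries, with 0.1 added to both. MP tumors 1 to 4 are blue in each row, MP tumor 5 is near 0 in each row but Hey2, and the Hey2 row is blue in all 10 tumors.

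Tumors differed in how many members stood below the ovaries. MP tumors 1, 2, 3 and 4 had all 10 members below every WT ovary, and MP tumors 6, 7 and 8 had 9. MP tumor 5 had 7 members above every ovary and 1, Hey2, below, and MP tumor 9 had 5 above and 5 below. The library labelled MP tumor 10 had 8 below and 1, Jag1, above. The share of all genes below or above every ovary was not computed for single tumors, so these counts have no background. All 3 tumors of batch 1 were below every ovary for 61.8% of all genes and above every ovary for 8.36%. The median ratio of the 10 members to the ovary mean was 0.0504, 0.0470 and 0.0453 in MP tumors 1, 2 and 3, and in the other tumors it ran from 0.112 in MP tumor 4 to 1.22 in MP tumor 5. Between tumors the highest level of a member was from 11.04 times (Hey1) to 150.5 times (Notch1) its lowest, whereas between ovaries it was at most 2.94 times (Hey2).

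Ranked by median TPM in WT ovaries, the members ran in the order Heyl, Notch2, Hes1, Hey2, Jag1, Notch3, Dll4, Notch4, Notch1 and Hey1. Neighbours in this order differed beyond their spread in 3 places, between Heyl and Notch2, between Dll4 and Notch4 and between Notch4 and Notch1. In MP tumors the order was Hes1, Notch2, Jag1, Notch3, Dll4, Hey1, Heyl, Notch4, Notch1 and Hey2, and the ranges of all neighbours overlapped. Heyl stood first among ovaries and seventh among tumors.

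Shares within a library do not depend on a single scaling factor for the library, such as that of median-of-ratios scaling, but do depend on quantile normalization and on the removal of length trends, which were not applied to them. Of the summed TPM of the 4 targets, Hey2 made up between 12.8% and 29.0% in WT ovaries and between 0.0868% and 6.56% in MP tumors, with 10 of 10 tumors below the ovaries. The share of Heyl was between 42.1% and 45.4% in ovaries and between 3.90% and 55.7% in tumors, 8 of them below and 2 above the ovaries. Hes1 made up between 24.2% and 36.4% of target TPM in ovaries and more than that in 9 of 10 tumors, with a median of 56.5%. Among the receptors, Notch2 had the largest share in every library, between 49.8% and 60.2% in ovaries and between 50.3% and 83.6% in tumors. Notch3 had between 20.9% and 29.7% of receptor TPM in ovaries and less in 8 of 10 tumors. Jag1 made up between 49.1% and 58.5% of the TPM of both ligands in ovaries and between 18.1% and 94.4% in tumors, where 4 were below and 4 above the ovaries.

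**Figure D3:**
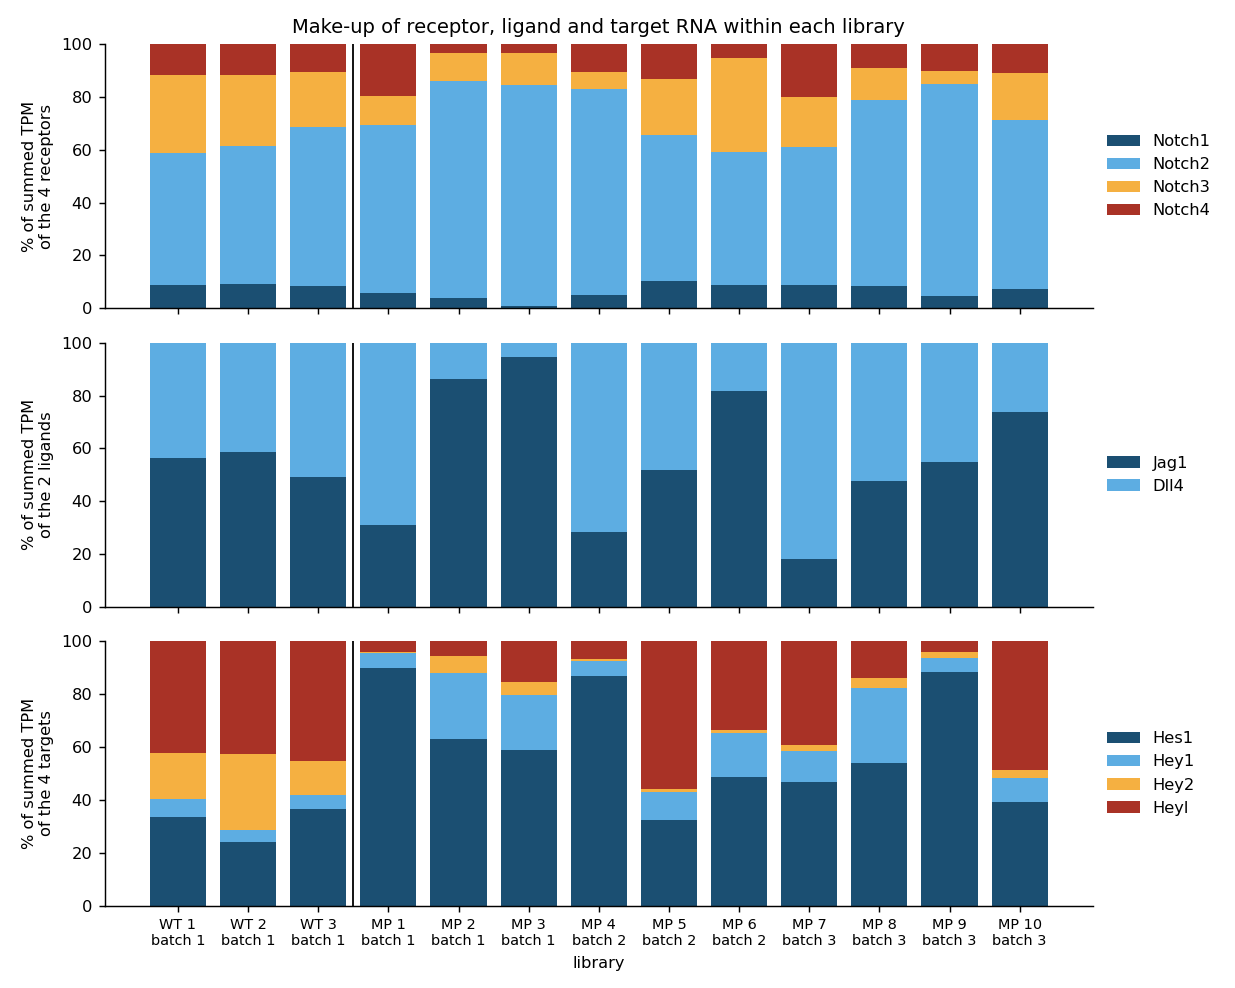
Percent of the summed TPM of the 4 receptors (top), both ligands (middle) and the 4 targets (bottom) taken by each gene in each library, with a line between WT ovaries and MP tumors. The Hey2 band (yellow, bottom) is widest in the 3 ovaries, and the share of Jag1 among the ligands runs from 18.1% to 94.4% across tumors.

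Within batch 1, the batch that held both conditions, all 10 members were lower in the 3 MP tumors than in the 3 WT ovaries, without overlap. In the same comparison 57.3% of all genes were lower by limma and 61.8% were lower without overlap, while 6.44% were higher by limma and 8.36% higher without overlap. No member was higher. Over all genes the median log2 fold change was −1.19. Among the receptors the log2 fold change was −2.58 for Notch1, −2.77 for Notch2, −3.46 for Notch3 and −2.66 for Notch4. The ligand Dll4 was at −3.06 (SE 0.27, limma adjusted P = 6.13e-05) and Jag1 at −2.12 (SE 0.60, limma adjusted P = 0.0161). Heyl had the largest difference, −4.62 (SE 0.29, limma adjusted P = 2.06e-05), followed by Hey2 at −4.11 (SE 0.41, limma adjusted P = 0.000111). Hes1 and Hey1 were at −1.64 and −1.20. With 1 library left out, between 8 and 10 members were lower, beside 50.2% to 61.7% of all genes. The call of Hes1 was lost without any of WT ovaries 1, 2 and 3 and MP tumors 2 and 3 (limma adjusted P between 0.0694 and 0.117), and that of Jag1 without WT ovary 1 or 2 or MP tumor 2 (limma adjusted P between 0.0506 and 0.0530). With the length trend removed, 5 members were lower (Notch3, Notch4, Dll4, Hey2 and Heyl), beside 27.5% of all genes. With median-of-ratios scaling the same 5 and Notch1 were lower, beside 32.2% of all genes. Hey1 turned to 0.08 and 0.11 under these scalings. Genes of 8000 to 16000 bases had a median of −2.15 in this comparison, and 83.5% of them were lower.

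The 10 tumors also differed by batch. Against the 7 tumors of batches 2 and 3, the 3 tumors of batch 1 had lower levels of Notch1, Notch2, Notch3, Notch4 and Dll4, which is 5 of 10 members beside 30.1% of all genes, and 4 members did not overlap beside 28.7%. No member was higher in batch 1 tumors, beside 1.29% of all genes by limma and 0.805% without overlap. The median over all genes was −0.84. Dll4 had a log2 difference of −2.29 (SE 0.55, limma adjusted P = 0.00703), and the receptors lay between −2.30 and −1.85. Hey2 differed by −0.48 (SE 0.40, limma adjusted P = 0.367), less than the median of all genes, and turned to 0.11 with median-of-ratios scaling and to 0.66 with the length trend removed. With the length trend removed none of the members was lower by limma in this comparison, beside 8.95% of all genes. Without MP tumor 1, 2 or 3 the count of lower members was 3, 2 and 2, beside 27.3%, 16.4% and 20.3% of all genes. No WT ovary belongs to batches 2 and 3, so in those batches the batch and the condition cannot be told apart.

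**Figure D4:**
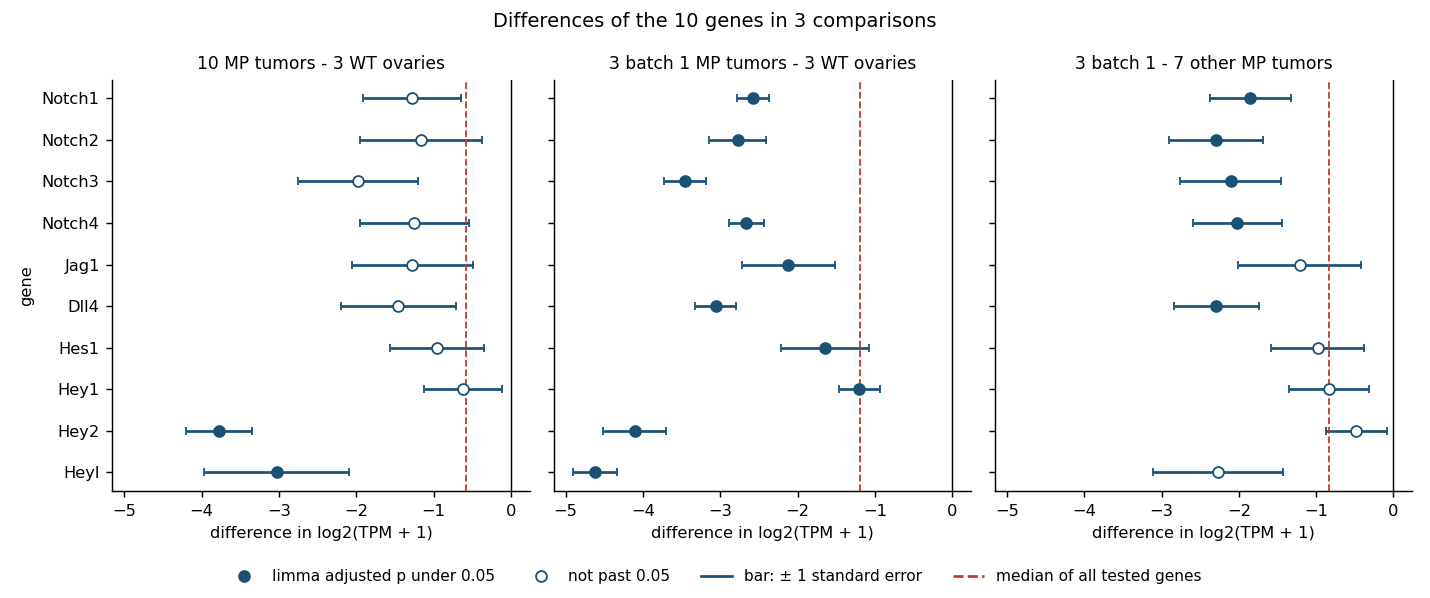
Difference in log2(TPM + 1) of each gene in the 3 comparisons, with bars of 1 SE, filled points for an adjusted P value under 0.05 and a dashed line at the median of all tested genes. Hey2 and Heyl lie farthest left in both comparisons with WT ovaries, and Hey2 lies to the right of the dashed line between batches of tumors.

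Beyond the members, 49 further genes of the pathway were listed by role, and 44 were tested. In MP tumors 4 of the 44 were lower, Aph1b, Maml2, Dll1 and Adam17, beside 14.3% of all genes, and none was higher by limma. At an unadjusted P value under 0.05, 14 were lower and 1 higher, beside 27.4% and 5.63% of all genes. Limma-voom called 10 lower and 1 higher, beside 19.1% and 14.8%. Their median log2 fold change was −1.08, beside −0.58 over all genes. Aph1b, a subunit of γ-secretase, stood between 17.1 and 19.7 TPM in WT ovaries and between 0.889 and 10.1 TPM in MP tumors (log2 fold change −2.21, SE 0.57, limma adjusted P = 0.0154). Adam17, a protease that can cut Notch receptors at the cell surface, stood between 64.6 and 67.9 TPM in ovaries and between 5.48 and 37.4 TPM in tumors (log2 fold change −1.72, SE 0.52, limma adjusted P = 0.0340). Aph1b and Adam17 were 2 of the 10 genes of receptor cleavage. Maml2, a Mastermind co-activator and 1 of 11 genes of the nuclear complex, stood between 10.9 and 14.1 TPM in ovaries and between 0.173 and 11.1 TPM in tumors (log2 fold change −2.53, SE 0.68, limma adjusted P = 0.0202). Dll1, a Delta ligand, was at low levels, between 2.26 and 3.09 TPM in ovaries and between 0 and 2.68 TPM in tumors (log2 fold change −1.28, SE 0.36, limma adjusted P = 0.0243). When any 1 of the 3 WT ovaries was left out, none of the 44 genes was lower, beside 6.70% to 6.92% of all genes, and when MP tumor 9 was left out, 9 were, beside 18.9%.

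None of the genes of receptor glycosylation (5), ligand endocytosis (4) and receptor turnover (9) passed the threshold in MP tumors. Neither did Hes6, the 1 tested gene of the other Hes genes. Over all genes 14.3% were lower and 2.51% higher, so few calls would be found in lists this small. Rbpj, the DNA-binding partner of the receptor domain, had a log2 fold change of −1.11 (SE 0.54, limma adjusted P = 0.165). Dlk1, a Delta-like protein that lacks the domain by which the Delta and Jagged ligands bind Notch, had the largest positive value, 3.28 (SE 1.30, limma adjusted P = 0.0935). It stood between 0.537 and 3.85 TPM in ovaries and between 1.73 and 289.5 TPM in tumors, and was called higher with median-of-ratios scaling, quantile normalization, the length trend removed and limma-voom. Within batch 1, 38 of the 44 genes were lower, beside 57.3% of all genes, and between batches of tumors 27 of 44, beside 30.1%. With the length trend removed, 19 were lower in batch 1, beside 27.5% of all genes, and 13 between batches, beside 8.95%. With median-of-ratios scaling 13 were lower between batches, beside 9.87%.

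Marker genes of vascular cells were measured in the same libraries. Of 15 endothelial markers, 6 were lower in MP tumors, beside 14.3% of all genes, and 15 had a log2 fold change below 0, beside 69.9%, with a median of −2.36. Their summed level was between 732 and 865 TPM in WT ovaries and between 33.9 and 529 TPM in tumors, and none was at 0 in any library. By mean TPM the endothelial markers with the highest levels were Cldn5, Cdh5 and Eng in ovaries and Sox18, Cdh5 and Esam in tumors. Of 11 mural markers, 6 were lower, with a median of −2.50, a summed level between 1707 and 1989 TPM in ovaries and between 91.4 and 1503 TPM in tumors, and Cnn1 at 0 in at least 1 tumor. By mean TPM the most abundant of these were Acta2, Myh11 and Mcam in ovaries and Acta2, Mcam and Kcnj8 in tumors. In batch 1 tumors the endothelial sum was between 33.9 and 65.3 TPM and in the other tumors between 135.9 and 529 TPM. Markers of other cell types were read in the same way. Of the theca and luteal markers 6 of 7 were lower (sums of 27183 to 32317 TPM in ovaries and 12.6 to 825 TPM in tumors), and of the oocyte markers 7 of 8 (292.9 to 440 TPM and 1.87 to 33.3 TPM). Of the fibroblast markers 2 of 6, of the epithelial markers 3 of 8 and of the macrophage markers 0 of 8 were lower by limma, with 4 of the last at an unadjusted P value under 0.05, beside 27.4% of all genes. The part of these cell types in the fall of Hey2 and Heyl was not tested.

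Across the 10 MP tumors, Dll4 and Notch4 followed the endothelial markers most closely. The mean log2(TPM + 1) of the endothelial list was set against Dll4 with Pearson's r = 0.998 and Spearman's rho = 0.988, each with a permutation P = 1e-05, the smallest that 100000 resamples can give (adjusted 0.0001 and 0.0002 over 20 relations). Without MP tumors 3 and 5, the tumors farthest from the median marker level, r was 0.997. Notch4 gave r = 0.975 (permutation P = 1e-05, adjusted 0.0001) and rho = 0.964 (permutation P = 8e-05, adjusted 0.000533), and r = 0.964 without the same tumors. In the 7 tumors of batches 2 and 3 alone, r was 0.996 for Dll4 (exact permutation test, adjusted P = 0.0079) and 0.943 for Notch4 (exact permutation test, adjusted P = 0.0225). With the length trend removed, r was 0.986 for Dll4 and 0.936 for Notch4 over the 10 tumors. No batch holds 6 tumors, so a value within a batch was not computed. The points of such a relation share library, depth and scaling.

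**Figure D5:**
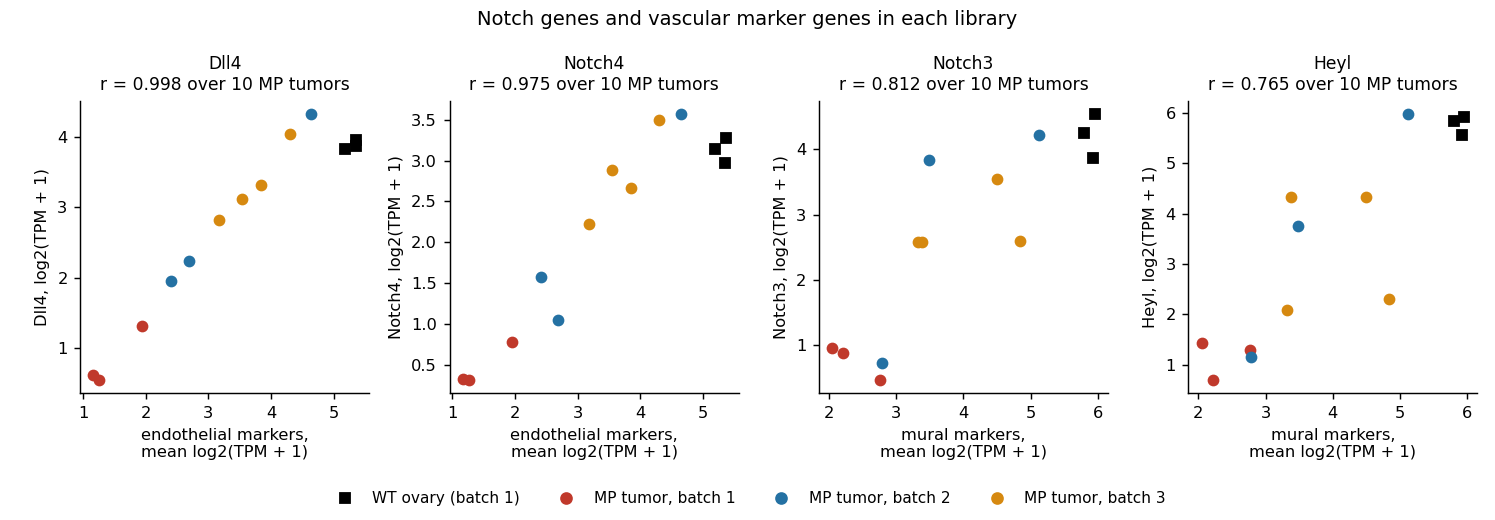
Level of Dll4 and Notch4 against the mean of 15 endothelial markers, and of Notch3 and Heyl against the mean of 11 mural markers, all as log2(TPM + 1), in WT ovaries (squares) and MP tumors (circles colored by batch). The tumor points for Dll4 lie along a line (r = 0.998), and those for Heyl scatter more widely (r = 0.765).

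With the mural markers, r was smaller for Notch3 and Heyl than for Notch1, Notch2, Notch4 and Dll4, a difference that was not tested. Against the mural list, Notch3 gave r = 0.812 (permutation P = 0.00567, adjusted 0.0126) and rho = 0.830, and Heyl gave r = 0.765 (permutation P = 0.0117, adjusted 0.0234) and rho = 0.806. Without MP tumors 5 and 9 r was 0.830 for Notch3 and 0.839 for Heyl, but neither passed adjustment with median-of-ratios scaling, in the 7 tumors of batches 2 and 3 or with the length trend removed. Without MP tumor 2, Heyl did not pass either (exact permutation test, adjusted P = 0.0555). With the same list, Notch4 gave r = 0.952 (permutation P = 2e-05, adjusted 0.0001) and Dll4 gave r = 0.919 (permutation P = 0.00039, adjusted 0.00156). Whether a member followed one list more than the other was not tested. Notch1 gave r = 0.929 with the mural list (permutation P = 2e-05, adjusted 0.0001), and r = 0.563 (adjusted P = 0.199) with the length trend removed. Jag1 was the member tied least to the endothelial list, at r = 0.464 (permutation P = 0.172, adjusted 0.172) and rho = 0.467. Of the 20 relations of 10 members with both lists, 19 passed an adjusted P value of 0.05 by Pearson's r. This count was 11 without MP tumor 2, 6 with median-of-ratios scaling, 6 in the 7 tumors of batches 2 and 3 and 4 with the length trend removed. The relations of Dll4 and Notch4 with the endothelial list and of Notch4 with the mural list passed in all 4 of these settings. The share of all tested genes that would pass against the same lists was not computed, so these counts have no background.

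Set against its markers within each library, Dll4 amounted to between 1.57% and 1.81% of the summed endothelial TPM in WT ovaries and between 1.13% and 3.70% in MP tumors, where 7 tumors were above the ovaries and 3 below. Notch3, set against the summed mural TPM, was below the ovaries in 4 tumors and above in 5. Heyl amounted to between 2.61% and 3.30% of the mural sum in ovaries and between 0.524% and 8.72% in tumors, with 6 tumors below and 3 above. Hey2 amounted to between 0.738% and 2.26% of the summed mural TPM in ovaries and between 0.0172% and 0.616% in tumors, so that all 10 tumors were below. Against the endothelial sum Hey2 was below the ovaries in 8 tumors. Against the summed granulosa TPM, Hey2 was at 0.359% to 0.562% in ovaries and at 0.00809% to 13.1% in tumors, with 5 tumors below and 5 above. Inha made up most of this sum, at a mean of 3775 TPM in ovaries and 421 TPM in tumors, and the smallest tumor sum was 5.67 TPM. All 8 granulosa markers were lower in MP tumors, beside 14.3% of all genes, with a median log2 fold change of −5.31, beside −0.58. The part of these markers in the level of Hey2 was not tested.

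The genes whose pattern over the 10 MP tumors was most like that of each member were taken by Pearson's r of log2(TPM + 1) among 10924 or 10925 genes with a mean of at least 5 TPM in these tumors. They are a description, since the tumors share depth and batch. Dll4 was nearest to Cdh5 (r = 0.991), Pecam1 (0.990) and Tie1 (0.989), which are 3 of the 15 endothelial markers. Notch4 was nearest to Mmrn2 (0.990), Cd93 (0.990) and Unc5b (0.988), of which Mmrn2 and Cd93 are known from endothelium. Notch1 was nearest to Hspg2 (0.978), which codes for the basement membrane protein perlecan, Gxylt1 (0.975) and Nfia (0.974). Notch2 was nearest to Smad1 (0.982), Elk4 (0.981) and Emilin1 (0.976), and Notch3 to P3h2 (0.967), Fscn1 (0.946) and Lclat1 (0.942). Among the others, Jag1 was nearest to Gli3 (0.925), a transcription factor of Hedgehog signaling, Hes1 to Ampd3 (0.951), Hey1 to Lhfp (0.909), Hey2 to Marcks (0.945) and Heyl to Mfge8 (0.914).

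Other genes overlap 4 of the members, and whether the counting used strand is not stated. Dll4 shares up to 214 exon bases with Gm14207 on the opposite strand, which was at a mean of 1.18 TPM in MP tumors and 1.04 TPM in WT ovaries. The genes that overlap Notch1, Notch2 and Notch3 had means of at most 0.734 TPM in either group, and no gene overlapped the exons of Notch4, Jag1, Hes1, Hey1, Hey2 or Heyl.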

How the data were processed

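The authors deposited a single table of TPM values, with each gene's position and length and without pooling replicates. Per the labels' processing notes, FastQC 0.11.5, Trimmomatic 0.36, STAR 2.5.3a and featureCounts 1.6.3 were used with mm10/GRCm38, while the extract protocol in the labels names a human build, HTSeq and RPKM. Of the genes, 96.0% have the start and end of GENCODE M21 (GRCm38), and of the members Notch3 does not. Columns were matched to samples by the label's description, and 0 columns were left over.

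Products of TPM and length were whole multiples of the smallest step (100% of values, within 0.05 read), which was taken as 1 read. For a length of 1 kb, that read amounted to 0.0513 TPM in the deepest library and to 0.790 TPM in MP tumor 5, and intervals for counting error were not computed. No pair of libraries of a group was a repeat (chi-square per degree of freedom at least 25.8). Nothing in the labels says that samples of a group are separate mice, so P values measure the spread between these samples.

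Genes with at least 1 TPM in at least 3 libraries were tested on log2(TPM + 1) with limma 3.58.1 (trended and robust, R 4.3.3), without a covariate. Correlations used 2-sided permutation tests (numpy 2.4.6, with ranks from scipy 1.17.1), exact for 7 and for 9 tumors. Scripts were tested on simulated data. With all 13 libraries, limma recovered 148 of 200 genes changed by a log2 of 3, and it called 8 unchanged genes. The simulation gave both groups the same spread, and smaller changes were not simulated. The members and gene lists were chosen with earlier results of these data known. Named are all members, up to 4 called genes per direction of the pathway lists (Dlk1, Rbpj and Hes6 were added after their values were seen), the genes most like each member, and the most abundant genes of the vascular marker lists. Alternatives varied the pseudocount, filter, scaling, batch, replicate block, single libraries, limma options, limma-voom on the reads and thinning to equal depth. Added after seeing the data were the relations in batches 2 and 3, the relations with the length trend removed and the pathway genes in the batch comparisons. Promoters came from RefSeq, and proteins were not analysed here.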

Additional observations from a re-analysis of the deposited data

Results flagged for a closer look

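In 4 of 24 measures, 1 MP tumor stood apart from the other 9 by more than Dixon's test allows at the 95% level. About 1.2 would be flagged by chance if the measures were independent and normally distributed. The test was made on TPM without a log, and whether these conditions hold was not tested. Hes1 was at 90.1 TPM in MP tumor 9, and the next tumor was at 36.1 TPM. Heyl was at 61.8 TPM in MP tumor 5, above the next at 19.1 TPM, and Hey1 was at 11.6 TPM in the same tumor, above the next at 6.55 TPM. The ligand Dll1 was at 2.68 TPM in MP tumor 9, above the next at 1.07 TPM. The WT ovaries, as a group of 3, were not examined in this way.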

How the results depend on the processing

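Hey2 and Heyl kept a log2 fold change below 0 in MP tumors in each of 25 alternatives, and passed the threshold in 25 and 16 of them. Over all genes, 433 higher genes became 1292 with median-of-ratios scaling, 1904 with quantile normalization, 1789 with the length trend removed, 894 with a batch covariate, 1112 in batch 1 alone and 2550 with limma-voom, and between 94 and 635 with 1 library left out. The 2463 lower genes became 8534 with the covariate, 9902 in batch 1 and between 1158 and 3264 with 1 library left out. The 2 lower members became 1 (Hey2) with a pseudocount of 0.1 and without the filter, 7 with the covariate, 10 in batch 1 and between 1 and 3 with 1 library left out. Of the other pathway genes, 0 higher became 1 (Dlk1) with the 3 scalings and with limma-voom. The 4 lower became 7 with quantile normalization, 34 with the covariate, 38 in batch 1, 10 with limma-voom and between 0 and 9 with 1 library left out. Hey1 turned to 0.34 with quantile normalization.

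Same-numbered libraries of batch 1 did not deviate together (r between −0.10 and 0.00), so the number is no pairing. With the replicate number as a block, batch 1 gave 1095 higher and 9838 lower genes, 10 lower members and 38 lower pathway genes.

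Within batch 1, with median-of-ratios scaling and with the length trend removed respectively, higher genes numbered 4594 and 4819, lower genes 5570 and 4751, lower members 6 and 5 and higher pathway genes 3 and 3, and Hey1 turned to 0.11 and 0.0825. Lower pathway genes numbered 19 with the length trend removed. Leaving out 1 library gave between 663 and 2171 higher genes, the latter without MP tumor 2, and between 0 and 1 higher pathway gene. Between batches of tumors, the same settings gave 2369 and 1505 higher and 1705 and 1546 lower genes, 3 and 0 lower members, 1 and 1 higher and 13 and 13 lower pathway genes. Leaving out 1 tumor gave between 46 and 343 higher genes, between 2830 and 5565 lower genes, between 2 and 6 lower members and between 18 and 30 lower pathway genes. With median-of-ratios scaling Hes1 turned to 0.25, Hey1 to 0.22 and Hey2 to 0.11, and with the length trend removed Jag1 turned to 0.0400, Hey1 to 0.0651, Hey2 to 0.66, Maml2 to 0.0792 and Dll1 to 0.46. Relations with vascular markers past the threshold fell from 19 to 6 with median-of-ratios scaling, 11 without MP tumor 2, 6 in batches 2 and 3 and 4 with the length trend removed. The causes were not tested. Depth limits Hey2 in tumors most, at 1 to 29 reads per library.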
